A study of Bos taurus with 40 samples.

Results

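The genes described here are the muscle regulatory factors MYOD1, MYF5, MYF6 and MYOG, the MEF2 factors MEF2A and MEF2C, myostatin (MSTN), its extracellular inhibitor follistatin (FST) and its receptor ACVR2B. They were taken by gene symbol from a list of 10 names, of which 9 had a line in the count tables, and PAX7 was not analysed here. All 9 passed the filter of at least 1 read in at least 1 sample, so they are 9 of the 13148 genes tested. In Korean cattle slaughtered at an age of over 22 months, 5 cows and 5 bulls each gave RNA of the pituitary gland, the longissimus dorsi muscle, the abdominal fat and the liver, with 1 library per animal and tissue and 40 libraries in all. The labels name no treatment, no genotype and no pooling of animals, and by the labels the same 10 animals gave all 4 tissues. Animals are numbered within each sex, and equal numbers of a cow and a bull do not pair them.

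The muscle regulatory factors are transcription factors that commit cells to the muscle lineage and drive their differentiation. MYF5 and MYOD1 act early and are kept by the satellite cells, the stem cells of muscle, MYOG drives the fusion and differentiation of myoblasts, and MYF6 is the factor most abundant in grown muscle fibres. MEF2 proteins bind the same promoters together with these factors. Myostatin, a secreted ligand of the TGF-beta family, restrains muscle growth by binding ACVR2B on the cell surface and activating SMAD2 and SMAD3, and follistatin captures it outside the cell. Cattle breeds that carry inactive myostatin are known for double muscling.

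Levels are given as CPM, the reads of a gene relative to all reads on genes of its library, scaled by trimmed mean of M-values (TMM), a correction for the composition of each library. Between 5173092 and 19165864 reads per library fell on genes, with a median of 10005607. At this depth the smallest level a library can show was set at 3 reads, between 0.132 and 0.793 CPM. Floors and intervals from reads cover counting error only. Lengths of the transcripts were not used here, so that levels are compared between samples and not between genes. In RefSeq (ARS-UCD2.0), MYF5 and MYF6 are neighbours on chromosome 5 with 0 annotated genes between them, MYOD1 lies on chromosome 15, MYOG on 16, MEF2A on 21, MEF2C on 7, MSTN on 2, FST on 20 and ACVR2B on 22.

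The tissue labels held against their marker genes. The summed level of 19 genes of the muscle fibre lay between 188894 and 315167 CPM in muscle and at or under 1622 CPM in every library of the other tissues. All 19 had a mean of at least 1 CPM in muscle, as did 17 in each of the other tissues. Only TNNI2 was at 0, in liver and pituitary gland. Hepatocyte markers summed to 133586 CPM or more in liver, anterior pituitary markers to 82977 CPM or more in pituitary gland and adipocyte markers to 6414 CPM or more in fat. A pair of libraries stood apart in genes of the sex chromosomes. The liver of bull 3 held XIST, the RNA that silences one X chromosome in females, at 1401 CPM and no read of the Y-linked genes USP9Y, DDX3Y and ZFY, and its closest liver library was that of cow 4, with a Pearson r of 0.993. The fat of bull 5 held USP9Y at 1.78 CPM against 28.1 to 34.1 in the other bulls, with XIST at 1.39 CPM, and had the highest fibre marker sum among the fat libraries. Results on these libraries are given with and without them where they change.

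All 4 muscle regulatory factors were 20.2-fold or more higher in muscle than in every other tissue. MYOD1 had 31.4 ± 19.8 CPM in muscle (SD, n = 10). Its muscle values were 25.1, 10.2, 36.0, 15.8 and 30.8 CPM in cows 1 to 5 and 40.3, 52.3, 72.2, 21.7 and 9.12 CPM in bulls 1 to 5. In each of the other tissues a single MYOD1 read was counted over all 10 libraries. All 10 muscle samples were therefore above every other sample. The ratio of muscle to fat was 4105 with a 95% counting interval from 736 to 162229, that to pituitary gland was 4556 (817 to 180050), and that to liver was 2508 (450 to 99088).

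MYOG, the factor of differentiation, had 120 ± 98.7 CPM in muscle (n = 10), and 2 reads in all of fat, 3 in liver and 8 in pituitary gland. The ratio of muscle to liver was 3238 (1108 to 15704), and the fitted log2 difference to pituitary gland was 10.94 ± 0.74 (SE, adjusted p = 5.38e-21). MYF6 had 641 ± 459 CPM in muscle, from 193 CPM in cow 3 to 1652 CPM in bull 1. It was 12.58 ± 0.60 log2 units higher in muscle than in liver, 12.48 ± 0.47 higher than in pituitary gland and 9.88 ± 0.31 higher than in fat. All of liver held 8 MYF6 reads and all of pituitary gland 16, with at most 3 and 4 per library. MYF6 reads in fat were few but even, from 7 to 13 in each of the 10 libraries, or 0.665 ± 0.148 CPM. Fat was above pituitary gland in all 10 animals (log2 difference 2.597 ± 0.49, adjusted p = 1.59e-06) and above liver in 9 of 10 (2.70 ± 0.63, adjusted p = 1.41e-05).

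MYF5 was the steadiest of the 9 genes in muscle. It had 9.38, 11.9, 7.997, 6.80 and 8.94 CPM in cows 1 to 5 and 9.90, 9.13, 8.99, 9.28 and 8.01 CPM in bulls 1 to 5, a mean of 9.04 ± 1.35 (n = 10). The highest sample was 1.76 times the lowest, and the coefficient of variation was 15.0%, where read counting alone would give 12.7%. With library sizes alone MYF5 in muscle was 6.76 ± 1.93 CPM, a wider spread relative to the mean. The coefficients and ranks given here are for TMM-scaled values only. Among the 9908 genes with a mean of at least 1 CPM in muscle, 1.84% had a smaller coefficient of variation, and the median gene had 35.8%. Other myogenic factors spread far more between the same animals, with 63.1% for MYOD1, 71.6% for MYF6 and 82.5% for MYOG, values that lay above those of 86.6%, 90.8% and 94.1% of the 9908 genes. MEF2A and MEF2C lay near the middle, at 32.0% and 40.5%.

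Fat was the only other tissue with more than 2 MYF5 reads, and the balance of the factors there differed from that in muscle. Fat libraries held 64 MYF5 reads in all, up to 17 per library, with reads in 9 of 10. The levels were 0.875, 1.04, 0.0819, 0.232 and 0.157 CPM in cows 1 to 5 and 0.724, 0.221, 0, 0.926 and 0.0773 CPM in bulls 1 to 5. Both sexes span this range. Muscle exceeded fat by 4.34 ± 0.39 log2 units (adjusted p = 3.97e-12), and fat held 39.1 times the MYF5 of liver (counting interval 6.77 to 1568) and 35.5 times that of pituitary gland (9.44 to 300). MYF5 made up 98.5% of the MYF5 and MYOD1 reads in fat (exact 95% interval 91.7 to 99.96) and 24.1% of those in muscle (22.5 to 25.7). These intervals pool the reads of 10 animals and leave out the spread between animals. In muscle, cow 2 had 138 MYF5 and 118 MYOD1 reads, whereas bull 3 had 34 and 273. The mean MYF5 level in fat was 4.80% of that in muscle, whereas the fibre marker sum in fat was 0.169% and MYF6 0.104% of theirs. In the fat of bull 5, the library with few Y-linked reads, the fibre marker sum was 1622 CPM and MYF5 0.0773 CPM. Fibre marker sums in the other fat libraries were 185 to 517 CPM. The next highest sums were in bull 4, bull 1 and cow 2, at 517, 382 and 363 CPM. MYF5 there was 0.926, 0.724 and 1.04 CPM. In the libraries with lower sums MYF5 was 0 to 0.232 CPM, except 0.875 CPM in cow 1. Whether MYF5 in fat follows the fibre markers was not tested. The cells that hold the MYF5 reads were not tested. In bulk tissue fewer cells of a type and less RNA per cell cannot be told apart.

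**Figure D1:**
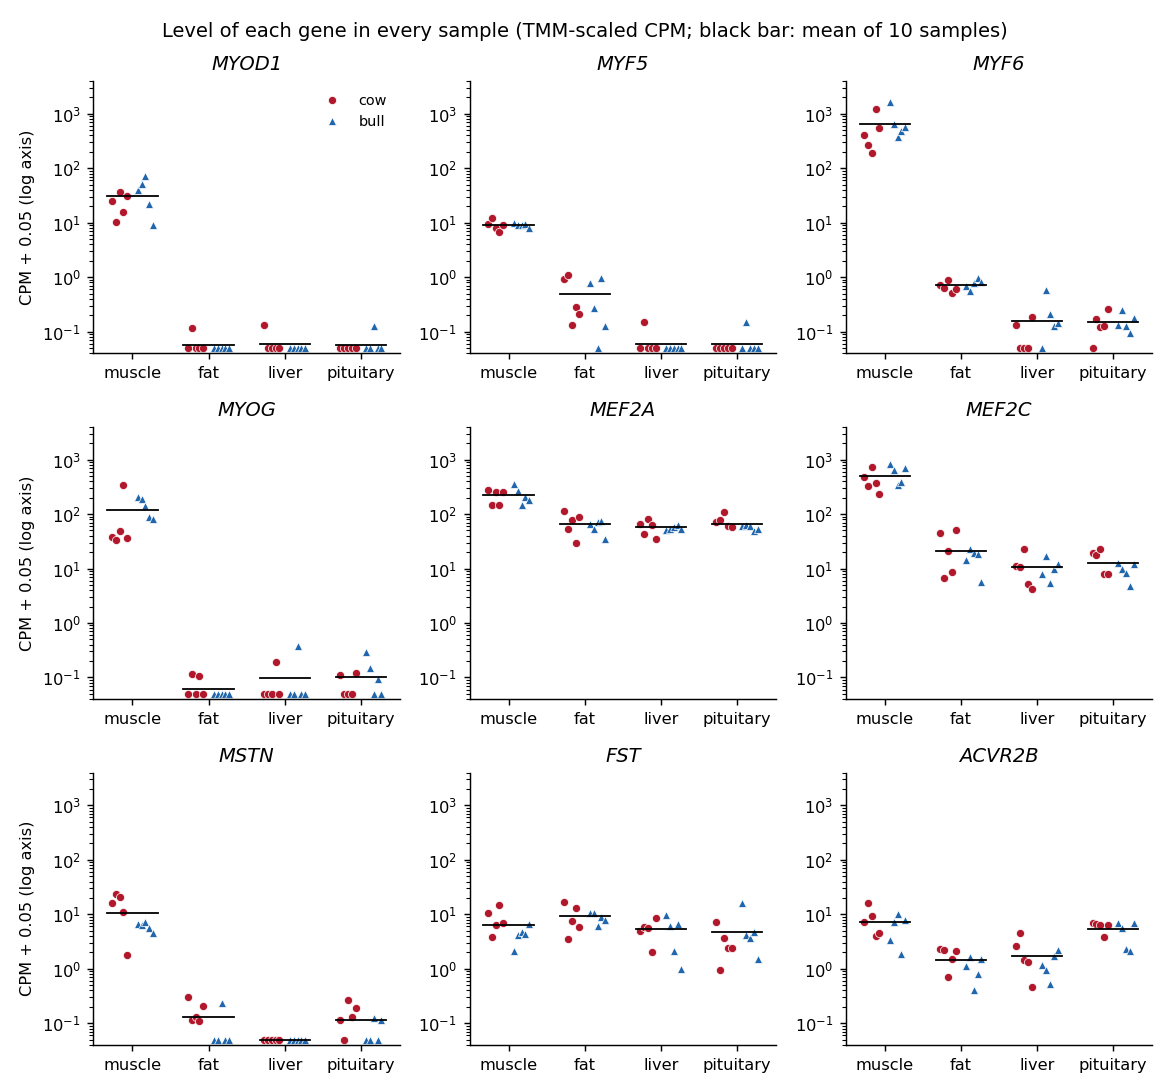
TMM-scaled CPM of each gene in every library, on a log axis after adding 0.05 CPM, by tissue, with circles for cows, triangles for bulls and a black bar for the mean of 10 samples. MYOD1, MYF5, MYF6, MYOG, MEF2A, MEF2C and MSTN are highest in all 10 muscle samples, MYF5 keeps a low level in fat, and the ranges of FST overlap between all 4 tissues.

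MEF2A and MEF2C were measured in all 40 libraries and were highest in muscle. MEF2C, the form prominent in skeletal and heart muscle, had 504 ± 204 CPM in muscle, 21.3 ± 15.5 in fat, 12.4 ± 5.97 in pituitary gland and 10.6 ± 5.84 in liver (n = 10 each). The lowest muscle sample, cow 5 with 234 CPM, was still above the highest sample of any other tissue, cow 5 with 51.1 CPM in fat. Muscle exceeded liver by 5.59 ± 0.34 log2 units, pituitary gland by 5.39 ± 0.33 and fat by 4.61 ± 0.33. MEF2C was also higher in fat than in liver (0.97 ± 0.34, adjusted p = 0.0117, 7 of 10 animals) and than in pituitary gland (0.78 ± 0.33, adjusted p = 0.0393, 7 of 10 animals). Without cow 5 the first of these fell to 0.66 with an adjusted p of 0.0730. The second was lost with DESeq2, with its median-of-ratios factors, without factors, and without any one of cow 1, cow 5, bull 2, bull 3 and bull 4, where the adjusted p was 0.0903, 0.166, 0.0799, 0.0723 and 0.0873.

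MEF2A, the widely expressed form, differed less between tissues. Muscle samples ranged from 145 to 364 CPM with a median of 228, fat from 29.7 to 115 with a median of 69.2, pituitary gland from 48.2 to 109 with a median of 59.7 and liver from 35.5 to 80.7 with a median of 56.2. Every muscle sample was above every sample of the other tissues. The log2 difference was 1.98 ± 0.20 to liver, 1.78 ± 0.20 to pituitary gland and 1.76 ± 0.20 to fat, with adjusted p values of 1.95e-11, 3.08e-10 and 7.10e-10. None of the 3 differences among fat, liver and pituitary gland passed the test, and their 95% intervals lay between -0.59 and 0.61. This depended on the scaling, because TMM moved fat relative to liver by -0.72 and liver relative to pituitary gland by 0.84 log2 units. With library sizes alone, MEF2A was higher in fat than in liver by 0.96 and liver against pituitary gland was -1.05, and both then passed.

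Myostatin was higher in all 10 muscle samples than in any sample of the other tissues. MSTN had 16.4, 23.9, 21.2, 11.1 and 1.71 CPM in the muscle of cows 1 to 5 and 6.60, 6.40, 7.14, 5.47 and 4.56 CPM in that of bulls 1 to 5. The mean was 10.4 ± 7.52 CPM (n = 10), and the highest sample was 14.0 times the lowest. No MSTN read was found in any liver library, 12 in all of fat and 9 in all of pituitary gland. Muscle exceeded fat by 6.88 ± 0.57 log2 units (adjusted p = 1.55e-13) and pituitary gland by 7.23 ± 0.61 (adjusted p = 3.29e-14). Against liver MSTN was at least 331-fold higher, taking 3 reads over all liver libraries as the floor.

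Follistatin was found in all 40 libraries, and its levels overlapped between all 4 tissues. FST had 9.08 ± 3.87 CPM in fat, 6.41 ± 3.74 in muscle, 5.23 ± 2.83 in liver and 4.63 ± 4.37 in pituitary gland (n = 10 each). Muscle did not pass the test against any tissue. Its log2 difference was 0.29 to liver (95% interval -0.49 to 1.07), -0.51 to fat (-1.28 to 0.26) and 0.46 to pituitary gland (-0.31 to 1.23). Fat exceeded pituitary gland by 0.97 ± 0.39 log2 units (adjusted p = 0.0292, 9 of 10 animals), a call that was lost without cow 3, cow 4 or bull 2 (adjusted p = 0.0536, 0.0671 and 0.0634) and with library sizes alone. Without bull 1, whose pituitary gland held 15.9 CPM, the excess of muscle over pituitary gland was 0.98 and passed with an adjusted p of 0.0191. Fat did not pass against liver (0.80 ± 0.39, adjusted p = 0.0729), but passed without cow 2, cow 5 or bull 1, with adjusted p values of 0.0431, 0.0483 and 0.0245. With library sizes alone the log2 difference of muscle to pituitary gland turned to -0.50, that to fat was -1.37 and passed, and that of fat to liver was 1.53 and passed.

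ACVR2B, the activin type II receptor that also binds myostatin, was higher in muscle and in pituitary gland than in fat and liver. It had 7.12 ± 4.19 CPM in muscle and 5.33 ± 1.91 in pituitary gland, beside 1.38 ± 0.659 in fat and 1.65 ± 1.21 in liver (n = 10 each). Muscle exceeded fat by 2.36 ± 0.34 and liver by 2.08 ± 0.35 log2 units in all 10 animals, with adjusted p values of 2.29e-07 and 1.97e-06. Pituitary gland exceeded fat in all 10 animals (fat lower by a log2 difference of -1.95 ± 0.34, adjusted p = 4.69e-06) and liver in all 10 (-1.68 ± 0.35, adjusted p = 5.22e-05). Muscle and pituitary gland did not differ beyond their spread (0.41, 95% interval -0.24 to 1.06, adjusted p = 0.282), nor did fat and liver (-0.27, -0.98 to 0.43). The sign of both followed the scaling, with -0.50 and 0.39 for library sizes alone.

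Read over the set, 8 of the 9 genes passed the test as higher in muscle than in liver, where 34.0% of all genes were called higher in muscle and 28.0% higher in liver. Against fat 8 of 9 were higher in muscle (26.8% of all genes, with 32.8% higher in fat), and against pituitary gland 7 of 9 (31.5%, with 32.5% higher in pituitary gland). None was lower in muscle. The 7 genes higher in muscle than in each other tissue were the 4 regulatory factors, MEF2A, MEF2C and MSTN, and 13.0% of all genes had that pattern, with 8.56% lower in muscle than in each. The median log2 difference over the 9 genes was 8.66 to liver, 4.61 to fat and 7.23 to pituitary gland, beside 0.11, -0.13 and -0.03 over all genes. Fat was higher than liver in 4 genes, MYF5, MYF6, MEF2C and MSTN (35.4% of all genes were higher in fat and 28.9% in liver), though the MSTN call rests on 12 reads. Fat was higher than pituitary gland in MYF5, MYF6, MEF2C and FST and lower in ACVR2B (31.8% and 32.8% of all genes). Liver was lower than pituitary gland in MSTN and ACVR2B (29.4% higher and 35.1% lower), the first with 0 and 9 reads. With library sizes alone, the share of calls that were higher in the first tissue moved from 45.0% to 19.9% for muscle against fat, from 49.3% to 21.0% for muscle against pituitary gland, from 55.1% to 76.8% for fat against liver and from 45.6% to 21.4% for liver against pituitary gland.

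**Figure D2:**
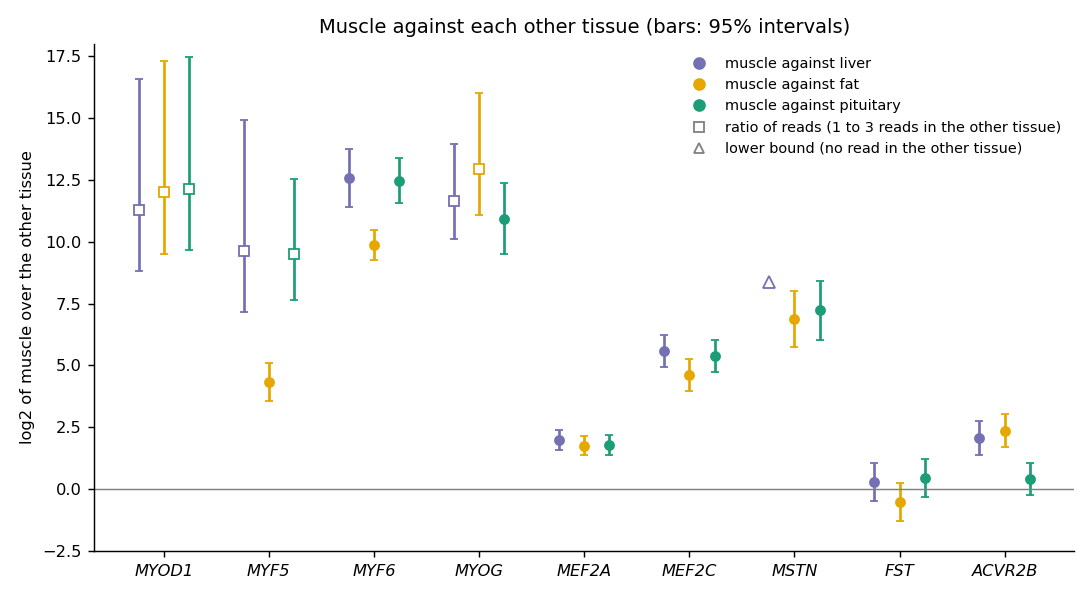
Log2 of the level in muscle over that in liver, fat and pituitary gland for each gene, with 95% intervals; open squares are ratios of summed reads where the other tissue had 1 to 3 reads, and the open triangle is a lower bound. The 4 regulatory factors, MEF2C and MSTN lie above 3, MEF2A lies near 2, and the intervals of FST all include 0.

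Genes whose levels ran most like those of each member over the 40 libraries were ranked by Pearson's r of log2(CPM + 0.5). These are descriptions, since all libraries share the contrast of muscle with the other tissues. MYOD1 ran closest with DHRS7C (r = 0.987), VGLL2 (0.984) and LBX1 (0.983), MYF6 with ITGB1BP3, IP6K3 and TRIM54 (0.992, 0.991 and 0.991), and MYOG with TRIM55 (0.992), DUSP27 (0.991) and POPDC2 (0.990). Among the 3 closest to MYF5 were CAV3 (0.976) and PDLIM3 (0.975). For MSTN the closest were UBE2D1 (0.975), MIR1-2 (0.970) and ATP1B4 (0.969). MEF2A and MEF2C shared CLIP1 as the closest gene (0.944 and 0.971), and MEF2C was second for MEF2A (0.935). DYRK1A (0.932) followed for MEF2A, and FILIP1 and SYNM (0.967 each) for MEF2C. ACVR2B ran with FSD1L (0.834), MAN2A2 (0.833) and DNMT3A (0.828). For FST the highest values were lower, with SOX18 (0.574), HES2 (0.562) and TIE1 (0.558), and SOX18 and TIE1 are known from the endothelium.

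The study asked how cows and bulls differ in metabolic tissues, so the 9 genes were compared between the sexes in each tissue (model M1) and over all tissues with the tissue as a term (M2), by likelihood ratio tests in edgeR. No member passed in any single tissue. Of all genes, 0.745% were called in pituitary gland, 0.517% in muscle, 0.114% in fat and 0.175% in liver. At an unadjusted p under 0.05 there were 2 members in muscle, MSTN and FST, and 0 in each other tissue. Of all 13148 genes, 1445 had such a p in muscle, 1219 in pituitary gland, 905 in fat and 980 in liver. Neither the quasi-likelihood test nor DESeq2 called a member in any tissue.

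Myostatin in muscle was higher in 4 cows than in every bull and lowest in the remaining cow. The values given above put cows 1 to 4, at 11.1 to 23.9 CPM, above all 5 bulls, at 4.56 to 7.14 CPM, whereas cow 5 had the lowest value of all, 1.71 CPM from 13 reads. Cows had 14.9 ± 8.82 and bulls 6.03 ± 1.02 CPM (n = 5 each), a log2 difference of bulls to cows of -1.31 ± 0.50 with a 95% interval from -2.29 to -0.33, an unadjusted p of 0.00952 and an adjusted p of 0.254. Leaving out cow 5 gave -1.60 with an adjusted p of 0.00215, where 0.996% of all genes were called. Of the 10 fits that each left out 1 animal, this was the only one that called MSTN in muscle. The muscle of cow 5 had the highest sum of 5 adipocyte markers, 799 CPM against 42.1 to 279 CPM in the other 9 muscle samples, and a fibre marker sum of 284952 CPM, within the range of the others. Cows 1 to 3, with the highest MSTN, also had the highest sums of 6 leukocyte markers, 117, 110 and 152 CPM against 21.7 to 69.6 CPM in the other 7 muscle samples. The sum of 5 fibroblast markers was highest in cows 1 and 2, at 5645 and 4597 CPM against 1490 to 3132 CPM in the others. The part of these cell types in the MSTN values was not tested.

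Over all tissues MSTN was lower in bulls by a log2 difference of -1.38 ± 0.44 (adjusted p = 0.0433), the only 1 of 9 members called, where 1.69% of all genes were. Almost all MSTN reads in this fit came from muscle. The call was lost with the quasi-likelihood test (adjusted p = 0.0841), with the animal as a block in voom (-0.81, adjusted p = 0.490) and without the liver of bull 3 and the fat of bull 5 (adjusted p = 0.0596). Among 10 fits, each with 1 animal omitted, 7 lost it (cow 1, cow 2, cow 3, bull 1, bull 2, bull 4 or bull 5), with adjusted p values from 0.0575 to 0.159, and without cow 5 it was 0.000390.

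Myogenin (MYOG) in muscle was lower in 4 cows than in every bull and highest in the remaining cow. MYOG had 38.2, 33.9, 48.0, 337 and 36.7 CPM in the muscle of cows 1 to 5 and 204, 188, 139, 89.8 and 82.2 CPM in that of bulls 1 to 5. With all samples the log2 difference of bulls to cows was 0.52 ± 0.59 (95% interval -0.63 to 1.67, adjusted p = 0.817). Leaving out cow 4 raised it to 1.84 with an adjusted p of 7.56e-06, where the 4 other cows had 39.2 ± 6.12 CPM. In that fit 4.21% of all genes were called, 553 against 68 with all samples. MYOG in M2 moved from 0.48 (adjusted p = 0.613) to 1.70 (adjusted p = 0.000169) without that animal. The same muscle sample held MYF6 at 1248 CPM, second only to bull 1, FST at 14.8 CPM, the highest, and MYF5 at 6.80 CPM, the lowest. It had a fibre marker sum of 310964 CPM and the lowest fibroblast marker sum, 1490 CPM. These are TMM-scaled values, and this library had the lowest TMM factor of all 40, 0.518. The M1 fits used factors computed within muscle instead, which are not given here. By library size alone its FST was not the highest, with 100 reads of 13062901 against 77 of 7946459 in cow 1. The part of these levels and of the scaling in the MYOG result was not tested.

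**Figure D3:**
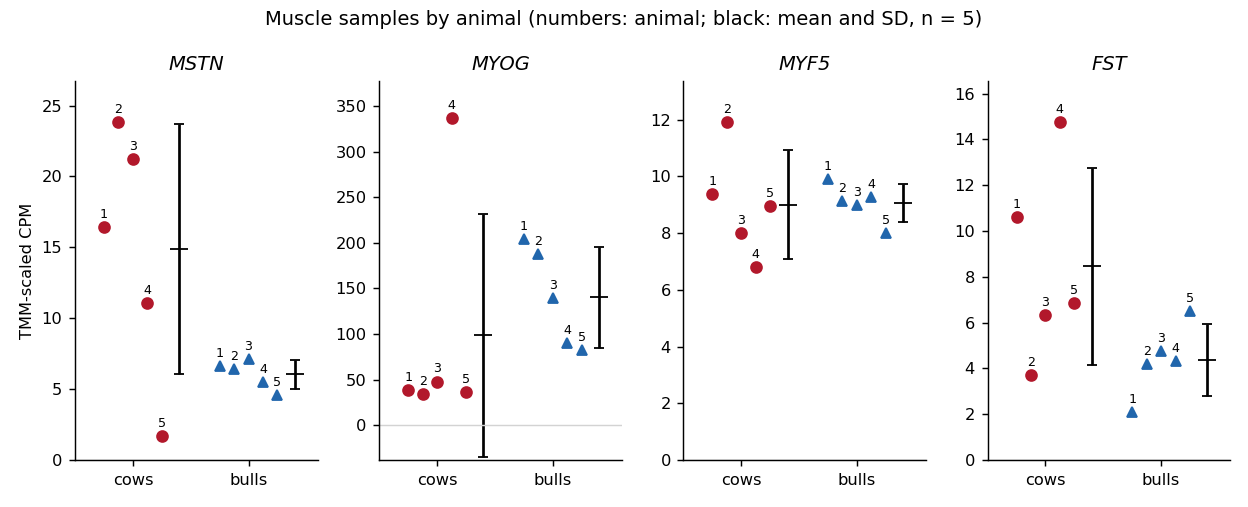
TMM-scaled CPM of MSTN, MYOG, MYF5 and FST in the muscle of each animal, with circles for cows, triangles for bulls, the animal's number above its point, and mean and SD of 5 animals in black. MSTN is higher in cows 1 to 4 than in all bulls, MYOG is lower in 4 cows than in all bulls with cow 4 at 337 CPM, and MYF5 stays between 6.80 and 11.9 CPM; the SD bar of MYOG in cows reaches below 0.

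Follistatin in muscle was 10.6, 3.72, 6.35, 14.8 and 6.84 CPM in cows 1 to 5 and 2.08, 4.20, 4.76, 4.31 and 6.49 CPM in bulls 1 to 5. The groups overlapped, with cow 2 below 4 of the bulls. The log2 difference of bulls to cows was -0.94 ± 0.43 (95% interval -1.78 to -0.10), which had an unadjusted p of 0.0286 and an adjusted p of 0.365. In the other tissues the FST intervals included 0, from -0.31 to 1.99 in pituitary gland, -1.10 to 0.99 in liver and -0.98 to 0.81 in fat.

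MYF5 in muscle was at 9.01 ± 1.91 CPM in cows and 9.06 ± 0.681 in bulls (n = 5 each), all 5 bulls lay within the range of the cows, and the 95% interval of the log2 difference ran from -0.56 to 0.57. MYOD1 had 23.6 ± 10.6 in cows and 39.1 ± 24.9 in bulls (0.74, -0.20 to 1.67, adjusted p = 0.617). MYF6 had 532 ± 422 in cows and 750 ± 516 in bulls (0.51, -0.47 to 1.49, adjusted p = 0.766), and without bull 1 the log2 difference was -0.01. For MEF2A in muscle the interval was -0.51 to 0.75 and for MEF2C -0.30 to 1.13. MEF2A and MEF2C were nearest to a difference in the pituitary gland, where MEF2A had 74.5 ± 20.8 CPM in cows and 56.7 ± 6.44 in bulls and MEF2C 15.3 ± 7.01 and 9.55 ± 3.26 CPM. Their unadjusted p values were 0.0529 and 0.0537 and their adjusted p values 0.540 and 0.544.

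ACVR2B had a fitted log2 difference of bulls to cows below 0 in each of the 4 tissues, -0.47 in muscle, -0.69 in fat, -0.62 in liver and -0.35 in pituitary gland, none of which passed. M2 gave -0.53 ± 0.24 with an unadjusted p of 0.0273 and an adjusted p of 0.234. Whether a sex difference varied with the tissue was addressed by the sex and tissue interaction. It called 0.335% of all genes and no member, with adjusted p values from 0.790 for FST upward. At an unadjusted p under 0.05 there were 0 members and 1128 of all 13148 genes. The quasi-likelihood test of the interaction called no gene at all.

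**Figure D4:**
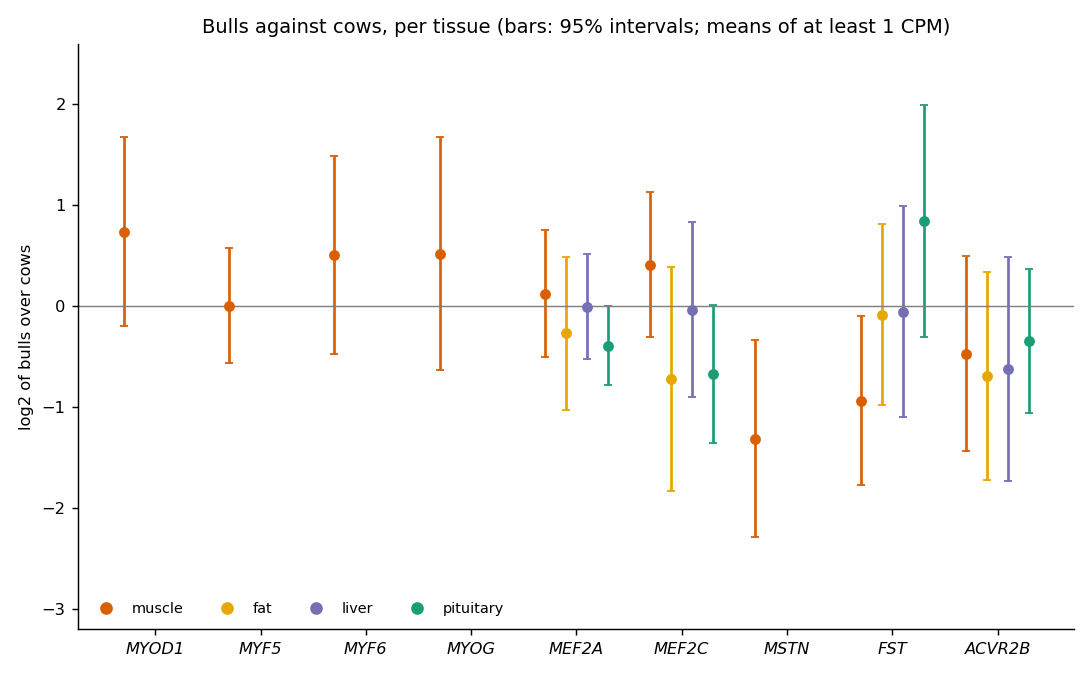
Log2 of the level in bulls over that in cows for each gene, by tissue, with 95% intervals, for tissues where the gene had a mean of at least 1 CPM. Only the muscle intervals of MSTN, from -2.29 to -0.33, and of FST, from -1.78 to -0.10, lie wholly below 0.

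Relations between members were tested over the 10 muscle samples with a permutation test of 100000 resamples, two-sided, on log2(CPM + 0.5), for 9 pairs. None passed after adjustment. MSTN and ACVR2B had r = 0.53 (permutation p = 0.116, adjusted p = 0.564) and Spearman's rho = 0.53 (permutation p = 0.122, adjusted p = 0.372), and r was 0.35 without cow 2 and cow 5. MEF2A and MEF2C had r = 0.52 (permutation p = 0.1253, adjusted p = 0.564) and rho = 0.64 (permutation p = 0.0538, adjusted p = 0.372), with r = 0.24 without bull 1 and cow 2. MSTN and FST had r = 0.12 (permutation p = 0.745, adjusted p = 0.838), rho = -0.07 (permutation p = 0.866, adjusted p = 1) and r = 0.51 without cow 2 and cow 5. Each sex holds only 5 samples, too few for a value within it.

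Most genes listed with the myogenic factors were also higher in muscle. Of 13 genes listed as other MEF2 genes and cofactors, 8 were higher in muscle than in each other tissue and 0 lower. Of all genes, 13.0% and 8.56% were. The list had a median log2 difference of 4.13 to liver, 3.26 to fat and 2.28 to pituitary gland. The 8 included CSRP3, the muscle LIM protein that assists MYOD1, with 6677 CPM in muscle and 1.27 to 2.03 CPM elsewhere. SMYD1, a muscle methyltransferase, had 661 CPM in muscle and 0.111 to 0.218 elsewhere, and VGLL2, a cofactor of TEAD factors, had 109 CPM in muscle. LMOD3, with 2199 CPM in muscle, was also among the 8, although it builds thin filaments. Of 18 repressors of myogenic factors, 4 were higher in muscle than in each other tissue and 1 lower, beside 13.0% and 8.56% of all genes, with medians of 1.58, -0.47 and 0.65. BHLHE41, which blocks MYOD1 activity, had 93.1 CPM in muscle and 9.71 to 30.9 elsewhere, ZEB1, which competes with the regulatory factors for E-boxes, had 151 CPM and 37.7 to 57.8, and BHLHE40 and TRPS1 were the others. ID2, which sequesters the partners of the regulatory factors, was lower in muscle, at 21.2 CPM against 54.7 in fat, 109 in liver and 39.1 in pituitary gland.

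Among 16 genes of satellite cells and fusion, 3 were higher in muscle than in each other tissue and none lower, a share near the 13.0% of all genes. CAV3, the caveolin of the muscle membrane, had 57.6 CPM in muscle and at most 0.273 elsewhere. CDH15, the M-cadherin of satellite cells, had 36.1 CPM in muscle and 5.26 CPM in fat, and 0.182 and 0.255 CPM in liver and pituitary gland. ITGA7, the laminin receptor of muscle, had 734 CPM in muscle, 187 in fat, 56.0 in liver and 20.2 in pituitary gland. The medians of this list were 0.87, 1.25 and 0.22 against liver, fat and pituitary gland.

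The genes around myostatin and follistatin were called in both directions between the tissues. Of 11 other ligands and processing enzymes, 2 were higher in muscle than in each other tissue and 0 lower, and for these and the antagonists the shares lay near the 13.0% higher and 8.56% lower of all genes. The ligands were INHA, the inhibin alpha subunit that opposes activin, with 12.5 CPM in muscle and 0.334 to 2.45 elsewhere, and TGFB2 with 56.5 CPM and 4.42 to 23.3 elsewhere. Of 9 extracellular antagonists, 1 was higher and 1 lower, and they are a pair of related inhibitors. WFIKKN2, which binds myostatin and its propeptide, had 52.3 CPM in muscle against 0.267 in fat, 0.0442 in liver and 0.231 in pituitary gland, whereas WFIKKN1 had 0.234 CPM in muscle against 1.24, 0.719 and 6.77. FST itself passed against none. Of 7 other receptors, ACVR1, BMPR1A and ACVR2A were higher in muscle than in each other tissue and none lower. ACVR2A, the close relative of ACVR2B, had 39.95 CPM in muscle, 24.9 in pituitary gland, 20.4 in fat and 19.4 in liver. Of 8 SMADs and regulators, 3 were higher and 0 lower, namely SMAD3, which carries the myostatin signal, with 41.4 CPM in muscle and 6.86 to 17.5 elsewhere, SMAD4, its shared partner, with 182 and 51.6 to 88.7, and SMAD7, an inhibitor of the same path, with 16.5 and 5.64 to 9.30. The median log2 differences to liver, fat and pituitary gland were 1.88, -0.50 and 0.12 for the ligands, 1.75, -0.89 and 1.31 for the antagonists, 0.93, 1.16 and 0.68 for the receptors and 0.28, 1.44 and 0.82 for the SMADs.

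**Figure D5:**
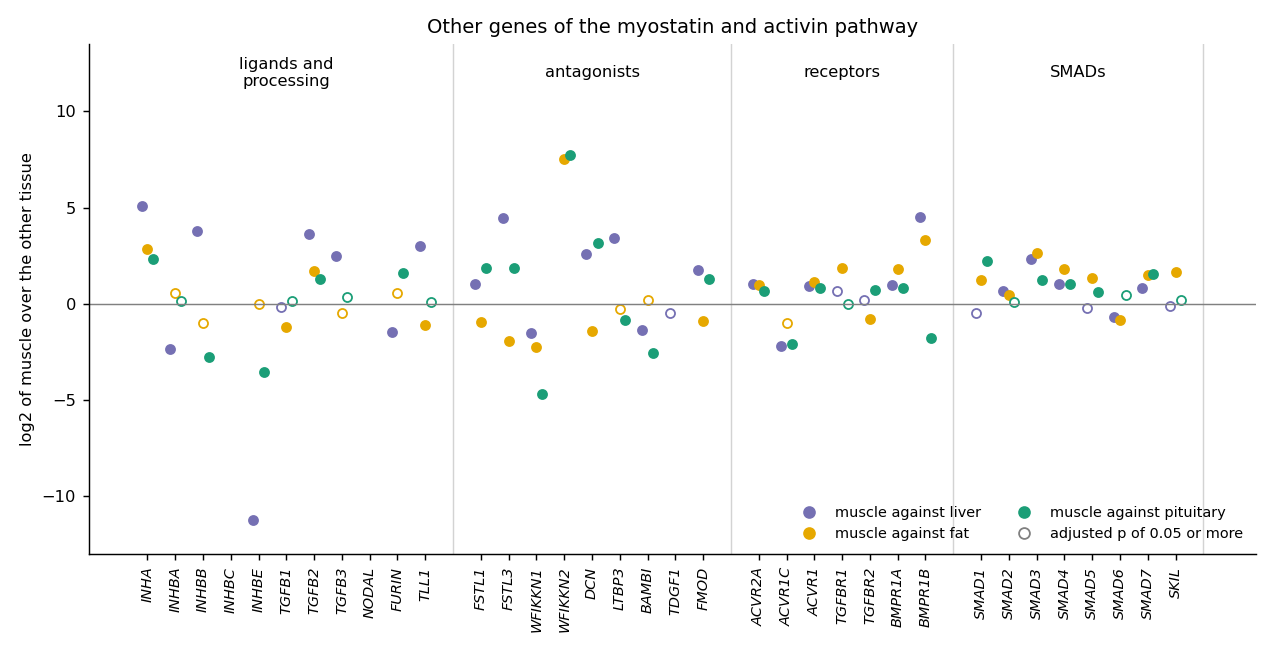
Log2 of the level in muscle over that in liver, fat and pituitary gland for the other genes of the myostatin and activin pathway, as filled points where the adjusted p was below 0.05 and open points elsewhere, leaving out comparisons in which either tissue had a mean below 0.05 CPM, so that INHBC and NODAL have no point. INHBE against liver is the lowest point, WFIKKN2 stands highest in muscle against fat and pituitary gland and WFIKKN1 lies below 0 in all comparisons, while most ligands, receptors and SMADs lie within a few log2 units of 0.

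Of these 82 other genes, 3 passed the M1 test of sex, 1 in liver, where 0.175% of all genes were called, and 2 in pituitary gland, where 0.745% were. INHBA, the subunit that forms activin A, was higher in the liver of bulls, with 28.8 ± 17.6 CPM against 3.63 ± 4.28 in cows (log2 difference 2.99 ± 0.59, adjusted p = 0.00445), and without the liver of bull 3 the adjusted p was 0.000320. The highest cow, at 11.2 CPM, overlapped the lowest bull, at 10.2 CPM. In the pituitary gland ACVR1C, an activin type I receptor, was lower in bulls, at 0.727 ± 0.230 CPM against 2.40 ± 1.06 (-1.72 ± 0.42, adjusted p = 0.0102), and FGFR4, a growth factor receptor of satellite cells, was higher, at 1.39 ± 0.818 CPM against 0.375 ± 0.138 (1.87 ± 0.51, adjusted p = 0.0345). The quasi-likelihood test called none of the 3, with adjusted p values of 0.314, 0.165 and 0.242. DESeq2 called all 3, with adjusted p values of 0.00123, 0.00613 and 0.0388. The interaction with tissue passed for none, with adjusted p values of 0.204, 0.245 and 0.148. Leaving out 1 animal at a time lost the call in 1 of 10 fits for INHBA, 4 of 10 for ACVR1C and 6 of 10 for FGFR4, with adjusted p values up to 0.0640, 0.0803 and 0.135.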

How the data were processed

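Per the labels and the study's methods, the authors used Trimmomatic to trim the reads, TopHat2 with Bowtie2 to align them to bosTau7, and HTSeq to count the reads that mapped uniquely to each gene. The deposited values are raw counts per gene, with 1 file per library. The handling of strand and of overlapping genes is not given in the sources used here. An unnamed line, with 0.114% to 2.69% of the reads on genes, was left out of library sizes and tests. Of 13570 genes, 13148 had at least 1 read in 1 sample and were tested. Gene names and chromosomes were looked up in RefSeq ARS-UCD2.0, where 13387 of the 13570 symbols matched a symbol or synonym. Its start positions served only to order the genes of chromosome 5 around MYF5 and MYF6.

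Counts were analysed with edgeR 4.0.16 in R 4.3.3. TMM factors for the CPM values, the tissue tests, M2 and the interaction were computed over all 40 samples. Those for M1 were computed over the 10 samples of each tissue. Tissues were compared by the quasi-likelihood test with sex and tissue as terms. Sexes were compared by likelihood ratio tests within each tissue (M1, 10 samples), over all tissues with the tissue as a term (M2), and for the interaction of sex and tissue. P-values were adjusted by Benjamini-Hochberg over all genes tested, with a threshold of 0.05. Log2 differences carry the standard error of the fitted model and a 95% interval of 1.96 standard errors. Where a tissue had 1 to 3 reads in all, the ratio of summed reads with an exact counting interval is given, and where it had 0, a bound from 3 reads over that tissue. A level's error is the SD between animals. The steps were tested on simulated data. DESeq2 1.42.0 and limma 3.58.1 (voom) served as alternatives, with other scalings, a low-count filter, an animal block and the omission of each animal. Figures were drawn with matplotlib 3.10.9.

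The number in the titles pairs the tissues of an animal, which by the labels came from the same animal. The liver of bull 3 lacked the Y-linked reads that its other tissues held. Deviations of same-animal libraries from their group means correlated with medians from 0.03 to 0.32 over the pairs of tissues, and with single values from -0.45 to 0.57. Cows and bulls are different animals and are not paired.

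The members, the lists of other genes and the marker lists were chosen with earlier results of these data known. All members were named. From each other list the text names genes called in the same direction in all 3 contrasts of muscle, up to the 4 with the largest change in their weakest contrast per direction, and genes called for sex in M1. The 3 genes with the highest r to each member were also named, except 1 that is not reported here.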

Additional observations from a re-analysis of the deposited data

Results flagged for a closer look

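A sample was singled out where its gap to the nearest of the other 4 of its sex and tissue, divided by the range of the 5, exceeded Dixon's critical value of 0.71. Among 46 such groups of 5 animals, 4 were singled out, where chance gives about 2.3. In the muscle of bulls, bull 1 had 1652 CPM of MYF6, against 370 to 663 CPM among the rest. In the muscle of cows, MYOG was 337 CPM in cow 4 and 33.9 to 48.0 CPM in the other 4. In the pituitary gland of bulls, bull 1 had 15.9 CPM of FST, against 1.43 to 4.67 CPM among the rest. In the pituitary gland of cows, ACVR2B was 3.74 CPM in cow 4 and 6.29 to 6.82 CPM in the other 4.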

How the results depend on the processing

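Of 613 alternative values of the members' tissue differences 575 kept their direction and side of the threshold, and of 467 for sex 418 did. The omissions of the fat of bull 5, alone or with the liver of bull 3, were chosen after seeing the data. Depth limits MYOD1, MYOG and MSTN outside muscle, with at most 12 reads per tissue. It also limits MYF5 in liver and pituitary gland, with 1 and 2 reads, and MYF6 there, with 8 and 16 reads. The cause of the changes below was not tested.

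With library sizes alone, 1772 genes were higher and 7122 lower in muscle than in fat with 1 member lower, 1942 higher and 7299 lower in muscle than in pituitary gland, 7009 higher and 2120 lower in fat than in liver, and 2081 higher and 7626 lower in liver than in pituitary gland with 4 members lower. Fat then had 2 members higher than pituitary gland. Log2 differences that turned were FST (-0.50) and ACVR2B (-0.50) in muscle against pituitary gland, ACVR2B in fat against liver (0.39), FST in liver against pituitary gland (-0.66), MEF2A in fat against pituitary gland (-0.0890), and for sex in muscle MYF5 (-0.15) and MEF2A (-0.0379). The relation MYOD1-MYF6 became -0.17 and MYF6-MEF2C -0.0185, and 56 genes were called for sex in pituitary gland. MEF2A in fat against pituitary gland was -0.0273 with median-of-ratios factors and with DESeq2. DESeq2 called 1 member lower in liver than in pituitary gland and 28 genes for sex in fat. The quasi-likelihood test called 12 genes for sex in pituitary gland, 7 in muscle, 3 in fat, 1 in liver, 77 in M2 with 0 members, and 0 for the interaction, where 922 had an unadjusted p under 0.05. The low-count filter left 13 genes in liver and 6 in fat, with MYF5 in muscle at -0.00490. Without the liver of bull 3, 61 genes were called in liver, with MEF2C at 0.12 and FST at 0.13. Without it and the fat of bull 5, M2 called 0 members. Centred within sex, r was -0.18 for MSTN-FST, 0.0711 for MSTN-MYOG and -0.0792 for MYOD1-MYF6.

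With the animal as a replicate block, the pairing of tissues gave -0.0185 for MEF2A in fat against pituitary gland, and in M2 by voom 0 members and 8 genes, with MSTN no longer called, and it ended no other call.

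Leaving out each animal in turn gave 7 to 8 members higher in muscle than in pituitary gland, 4 to 5 in fat than in liver, 2 to 4 higher and 1 to 2 lower in fat than in pituitary gland, and 1 to 2 lower in liver than in pituitary gland. Sex called 0 to 1 member in each direction in muscle and in M2, with 54 to 231 genes in pituitary gland, 25 to 553 in muscle, 5 to 22 in fat, 10 to 187 in liver and 57 to 714 in M2. Log2 ranges that crossed 0 were FST in muscle against liver (-0.0235 to 0.53) and in liver against pituitary gland (-0.00460 to 0.46), MEF2A (-0.0812 to 0.103) and MSTN (-0.0461 to 0.70) in fat against pituitary gland, and MYF6 in liver against pituitary gland (-0.45 to 0.0853). For sex these were MEF2A (-0.14 to 0.16), MEF2C (-0.29 to 0.45) and FST (-0.43 to 0.21) in liver, FST in fat (-0.29 to 0.22), MYF5 (-0.0712 to 0.14), MYF6 (-0.00904 to 1.099) and MEF2A (-0.0932 to 0.26) in muscle, and MYF5 (-0.26 to 0.18) and FST (-0.31 to 0.14) in M2.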
